A study of Nicotiana tabacum with 9 samples.

Results

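The unannotated transcripts of pollen that were most abundant in wild type (WT) were described here across 3 genotypes of tobacco, *Nicotiana tabacum* cv. Petite Havana SR1. They are the 200 transcripts with the highest mean over the 3 WT libraries among 7686 transcripts that lie outside the gene annotation. The whole table holds 76785 identifiers, of which 69099 belong to annotated genes. Pollen labelled as bicellular came from *ATG5*-silenced (ATG5 RNAi) plants, *ATG2*-silenced (ATG2 RNAi) plants and unsilenced WT plants, with 3 libraries per genotype described as independent biological replicates. All plants shared the same glasshouse conditions, and the promoter of the RNAi constructs and the number of transgenic lines are not given in the sources used here. Levels are FPKM, fragments scaled by transcript length and by the mapped fragments of the library, which allow levels to be compared between transcripts of unequal length. The tables used here give no read counts, and the depth behind a value is unknown. Nothing in the sources used here gives a sequence, a position, a length or a function for these identifiers, and each is called here by the number in its deposited identifier (transcript 6370, for example).

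Pollen grains carry a store of transcripts that were made before germination and serve the early growth of the pollen tube. Reads that map outside annotated genes are assembled into unannotated transcripts, which can be missed genes, parts of known genes, long noncoding RNAs, antisense RNAs or transcripts of repeats. Autophagy delivers cytoplasm to the vacuole for breakdown, and ATG2 takes part in the supply of lipid to the growing autophagosome membrane, while ATG5 belongs to the conjugate with ATG12 that helps to attach ATG8 to that membrane.

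The labels were first checked against the silenced genes and tissue markers. *ATG5* was at 0.10 to 0.23 FPKM in the *ATG5*-silenced libraries, 1.3 to 1.8 in the *ATG2*-silenced and 1.04 to 1.6 in the WT libraries. *ATG2* was at 0.57 to 0.65 FPKM in the *ATG5*-silenced, 0.2 to 0.3 in the *ATG2*-silenced and 0.9 to 1.18 in the WT libraries. The 5 genes known from pollen, ntp101, ntp201, ntp805, PRO1 and PPME1, summed to 40156 to 44154 FPKM in *ATG5*-silenced, 27185 to 28573 in *ATG2*-silenced and 24998 to 26854 in WT pollen. They did not change alike. For ntp101, ntp201 and ntp805 all *ATG5*-silenced libraries were above all others. PPME1 was at 2088 to 2517 FPKM in *ATG5*-silenced, 4560 to 4990 in *ATG2*-silenced and 3840 to 4602 in WT libraries. PRO1 was at 271 to 320, 839 to 929 and 691 to 787 FPKM in the same order. The 14 genes for photosynthetic proteins, which mark green tissue, summed to 1.39 to 2.24 FPKM in *ATG5*-silenced, 3.0 to 3.8 in *ATG2*-silenced and 3.9 to 7.4 in WT pollen. STIG1, a gene of the stigma, was at most 0.61 FPKM, and anther wall genes were not matched. The part of these marker differences in any result below was not tested. Because the totals and the bulk of the genes differed between genotypes, each library was divided by a median-of-ratios factor, which was 0.751 to 0.791 in *ATG5*-silenced, 1.06 to 1.11 in *ATG2*-silenced and 0.978 to 1.04 in WT libraries. Levels below are FPKM as deposited, and every log2 change is on log2(scaled FPKM + 0.5), which understates the change of low transcripts.

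The 200 transcripts spanned a wide range of levels in WT pollen. Their WT means ran between 53.3 and 2709.7 FPKM with a median of 149, and 11 of them reached 1000 FPKM, 34 reached 500 and 129 reached 100. The 200 annotated genes chosen by the same rule had WT means of 804.6 to 9251.9 FPKM with a median of 1595. Among all identifiers ordered by WT mean, 5 of the 200 transcripts stood in the top 100, 57 in the top 500 and 195 in the top 2000. By the *ATG5*-silenced mean, 46 stood in the top 500 and 145 in the top 2000, and by the *ATG2*-silenced mean 57 and 181. These WT levels chose the transcripts and are a description. At the edge of the choice, transcripts 26497, 362 and 14114 were just inside with WT means of 54.0, 53.7 and 53.3 FPKM. Just outside were transcripts 20020, 6821 and 10550 with 53.2, 53.1 and 52.8 FPKM.

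The first question was how much of the transcript pool these transcripts held. They made up 5.48, 6.02 and 5.68% of all FPKM in the *ATG5*-silenced libraries, 6.52, 6.50 and 6.26% in the *ATG2*-silenced libraries and 7.24, 5.99 and 6.04% in the WT libraries. The mean share was 5.73 ± 0.28% in *ATG5*-silenced, 6.43 ± 0.15% in *ATG2*-silenced and 6.43 ± 0.71% in WT pollen (SD, n = 3 each). All *ATG5*-silenced libraries were below all *ATG2*-silenced libraries, while 1 WT library stood well above the other 2. The difference between *ATG5*-silenced and *ATG2*-silenced pollen was -0.70 percentage points, with a two-sided exact permutation p of 0.10, which is the smallest that 3 against 3 libraries can give. The direction of this difference depended on the choice by WT libraries. When the 200 unannotated transcripts were chosen by their *ATG5*-silenced level, the share was 6.65% in *ATG5*-silenced and 5.49% in *ATG2*-silenced pollen, and when they were chosen by the mean scaled level of all 9 libraries it was 6.40% in *ATG5*-silenced and 6.36% in *ATG2*-silenced pollen. In such bulk samples, fewer cells of a type and less RNA per cell cannot be told apart.

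All unannotated transcripts together held 10.6 ± 0.51% of all FPKM in *ATG5*-silenced, 9.56 ± 0.18% in *ATG2*-silenced and 9.12 ± 0.62% in WT pollen (SD, n = 3 each; exact permutation p = 0.10 between the silenced lines). Those outside the 200 held 4.82 ± 0.24% of all FPKM in *ATG5*-silenced, 3.13 ± 0.13% in *ATG2*-silenced and 2.70 ± 0.17% in WT pollen (SD, n = 3 each), a difference of 1.69 percentage points between the silenced lines (exact permutation p = 0.10). This difference depended on the choice as well. With the 200 chosen by their *ATG5*-silenced level, those outside held 3.90 ± 0.19% in *ATG5*-silenced and 4.07 ± 0.12% in *ATG2*-silenced pollen (SD, n = 3 each, exact permutation p = 0.30). The 200 of highest WT mean held 54.3 ± 0.38% of the FPKM of all unannotated transcripts in *ATG5*-silenced pollen, against 67.2 ± 1.09% in *ATG2*-silenced and 70.3 ± 3.13% in WT pollen. The 200 annotated genes of highest WT mean held 47.8 ± 0.91% of all FPKM in *ATG5*-silenced, 46.6 ± 0.60% in *ATG2*-silenced and 46.8 ± 0.55% in WT pollen (exact permutation p = 0.20 between the silenced lines, whose libraries overlapped).

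**Figure D1:**
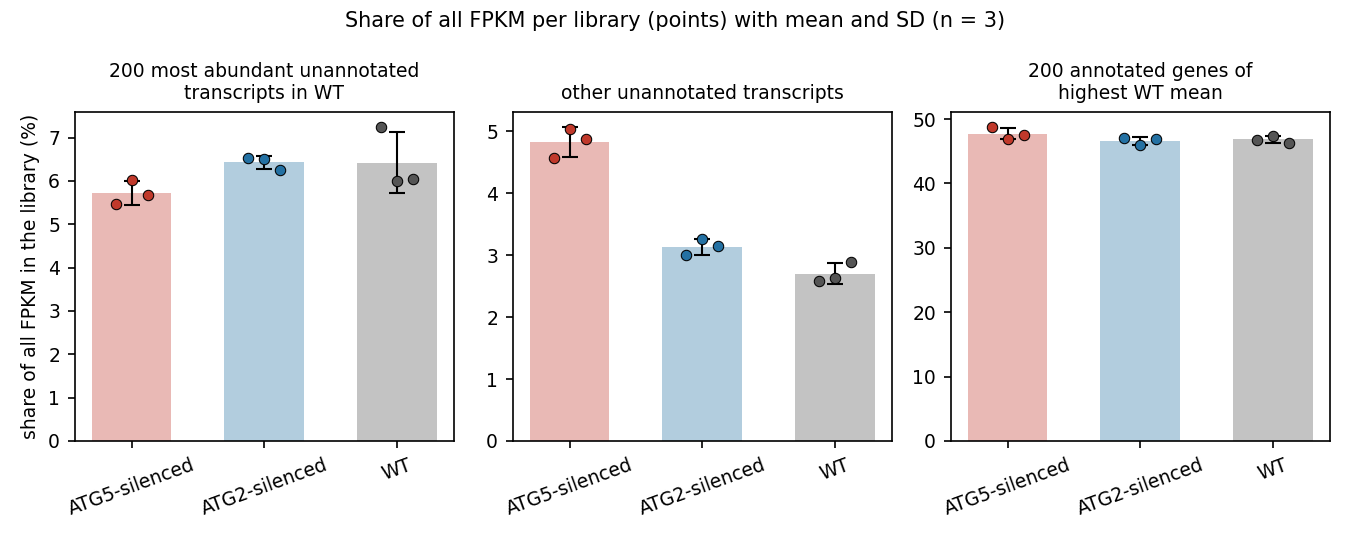
Share of all FPKM in percent, per library (points) with the mean and SD (bars, n = 3), for the 200 transcripts, all other unannotated transcripts and the 200 annotated genes of highest WT mean. Each panel has its own vertical scale, and the other unannotated transcripts hold 4.82% in *ATG5*-silenced pollen, above the 3.13% in *ATG2*-silenced pollen.

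Split by WT rank, the share was lower in *ATG5*-silenced than *ATG2*-silenced pollen for the first 50 and higher for the rest. The ranks come from the WT libraries that chose the 200, and each sum holds gains and losses. The difference is therefore not placed by this split. Ranks 1 to 50 by WT mean held 3.19% of all FPKM in *ATG5*-silenced, 4.31% in *ATG2*-silenced and 4.30% in WT pollen, whereas ranks 51 to 200 held 2.53% in *ATG5*-silenced, 2.11% in *ATG2*-silenced and 2.13% in WT pollen. The 10 highest held 1.00 ± 0.016% in *ATG5*-silenced, 1.65 ± 0.079% in *ATG2*-silenced and 1.82 ± 0.23% in WT pollen (SD, n = 3 each). The 10 highest took 17.5% of the FPKM of the 200 in *ATG5*-silenced pollen, against 25.7% in *ATG2*-silenced and 28.2% in WT pollen. In *ATG5*-silenced libraries 134, 144 and 146 of the 200 reached 50 FPKM, against 191, 189 and 186 in *ATG2*-silenced and 195, 191 and 195 in WT libraries. Of the 200, 123 were among the 200 highest unannotated transcripts of *ATG5*-silenced pollen, against 181 in *ATG2*-silenced pollen, and 10 stood outside the top 1000 in *ATG5*-silenced pollen, against 1 in *ATG2*-silenced pollen.

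**Figure D2:**
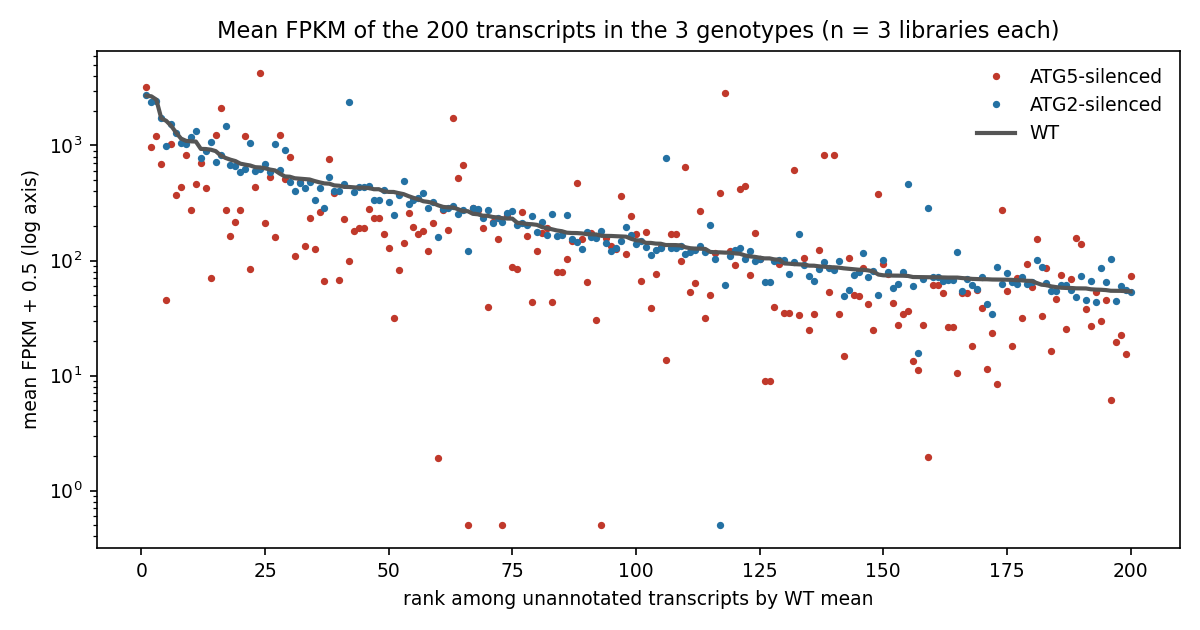
Mean FPKM + 0.5 on a log axis for each of the 200 transcripts, ordered by WT rank, in *ATG5*-silenced (red points), *ATG2*-silenced (blue points) and WT (grey line) pollen, n = 3 libraries each. The blue points stay near the WT line for most transcripts, and the red points scatter to both sides, with 10 transcripts outside the 1000 highest unannotated transcripts of *ATG5*-silenced pollen.

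Of the 10 most abundant transcripts, 3 were called lower in *ATG5*-silenced than *ATG2*-silenced libraries and none was called higher. The highest, transcript 6370, had 3311, 3170.5 and 3277 FPKM in *ATG5*-silenced, 2980.0, 2926 and 2379 in *ATG2*-silenced and 2549, 2645 and 2935 in WT libraries. It kept the first place among unannotated transcripts in *ATG2*-silenced and WT pollen and the second in *ATG5*-silenced pollen, and its log2 change between *ATG5*-silenced and *ATG2*-silenced pollen was 0.74 (SE 0.10, limma adjusted p = 2.16e-04), under the 2-fold limit used for a call. The sixth, transcript 27018, had 1050, 1021 and 1032 FPKM in *ATG5*-silenced, 1528, 1497 and 1590 in *ATG2*-silenced and 1546, 1432 and 1474.5 in WT libraries, and after scaling the silenced lines differed by -0.07 on the log2 scale (SE 0.06, adjusted p = 0.337). The ninth, transcript 6870, had 918, 835 and 745 FPKM in *ATG5*-silenced, 1025, 997 and 1091 in *ATG2*-silenced and 1132, 1101 and 1057 in WT libraries, and its log2 change of 0.18 (SE 0.10, adjusted p = 0.152) had the other sign without scaling (-0.32), with equal totals (-0.20) and with quantile normalization (-0.09).

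Another 4 of the 10 were lower in *ATG5*-silenced libraries by less than the 2-fold limit once scaled. Transcript 17689 had 954, 931 and 1020 FPKM in *ATG5*-silenced, 2323, 2168 and 2643 in *ATG2*-silenced and 3039, 2731 and 2251 in WT libraries (log2 change between the silenced lines -0.79, SE 0.13, adjusted p = 8.06e-04). Transcript 18920 had 1355, 1114 and 1157 FPKM in *ATG5*-silenced, 2273, 2048 and 3003 in *ATG2*-silenced and 2638, 2816 and 2054 in WT libraries (log2 change -0.50, SE 0.18, adjusted p = 0.0421). Transcript 17943 had 660, 677 and 749 FPKM in *ATG5*-silenced, 1693, 1545 and 2004 in *ATG2*-silenced and 1803, 1761 and 1605 in WT libraries (log2 change -0.82, SE 0.10, adjusted p = 1.93e-04). In all of these the *ATG5*-silenced libraries lay below all 6 others. The same held for transcript 4663, with 401, 424 and 469 FPKM in *ATG5*-silenced, 1097, 1035 and 1028 in *ATG2*-silenced and 1170.5, 1161 and 1112 in WT libraries (log2 change -0.79, SE 0.07, adjusted p = 3.33e-05). The scaling decided whether these passed the 2-fold limit. Transcripts 17689, 17943 and 4663 passed it as lower under each of the other 3 scalings, with log2 changes of -1.32 to -1.02, and transcript 18920 did without scaling.

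The remaining 3 of the 10 passed the call as lower. Transcript 25442 had 333, 360 and 411 FPKM in *ATG5*-silenced, 1223, 1221 and 1387 in *ATG2*-silenced and 1395, 1385 and 1099 in WT libraries (log2 change between the silenced lines -1.30, SE 0.12, adjusted p = 3.33e-05). Transcript 14268 had 227, 287 and 306 FPKM in *ATG5*-silenced, 1119, 1113 and 1336 in *ATG2*-silenced and 1113, 970 and 1174 in WT libraries (log2 change -1.63, SE 0.11, adjusted p = 4.97e-06). Transcript 21258 was at 0.95, 110 and 22.6 FPKM in *ATG5*-silenced, 1129, 660 and 1160 in *ATG2*-silenced and 3593, 590 and 729 in WT libraries. The last of these did not overlap between the silenced lines either, but it ranged widely within *ATG5*-silenced and within WT libraries, and its log2 change of -5.49 (SE 1.52, adjusted p = 0.0178) had an adjusted p of 0.0505 without *ATG2*-silenced replicate 1 and likewise without replicate 3.

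The second question was how many of the 200 differed between *ATG5*-silenced and *ATG2*-silenced pollen. The difference is taken between libraries that did not choose the transcripts, but the WT libraries, which did, enter the estimate of the spread in the fit of all 9. All of the 200 passed the filter on low values, and in *ATG5*-silenced pollen 31 (15.5%) rose and 46 (23.0%) fell relative to *ATG2*-silenced pollen, with a change over 2-fold and an adjusted p under 0.05 (limma, Benjamini-Hochberg over 27836 tested identifiers). The fit of the 6 silenced libraries alone gave 29 higher and 45 lower. Over all tested identifiers 14.3% were higher and 9.66% lower, and over the 6956 unannotated transcripts tested 32.2% were higher and 11.6% lower. The share of the 200 that was higher was thus near that of all identifiers and below that of unannotated transcripts, and the share that was lower was above both. The unannotated background includes transcripts at 0 in WT that passed the filter through *ATG5*-silenced libraries alone. Choice by WT level kept these out of the 200. Of the 200, 181 were also among the 200 highest unannotated transcripts of *ATG2*-silenced pollen, against 123 in *ATG5*-silenced pollen. Choice by WT level thus lay near a choice by *ATG2*-silenced level, which favours falls in *ATG5*-silenced pollen. The comparisons with all identifiers and with unannotated transcripts are therefore a description. In FPKM as deposited, all *ATG5*-silenced libraries were above all *ATG2*-silenced libraries in 40 of the 200 and below them in 120, where the background was 18.1% above and 52.3% below over all tested identifiers and 33.2% above and 30.2% below over unannotated transcripts. Among the 200 annotated genes of highest WT mean 42 were above and 123 below. By the test, 35 (17.5%) of these annotated genes were higher and 24 (12.0%) lower. The median log2 change was -0.20 over the 200 transcripts, 0.47 over all unannotated transcripts, -0.07 over all tested identifiers and 0.08 over the 200 annotated genes.

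The direction of this count depended on the libraries that chose the transcripts. The 200 unannotated transcripts of highest level in *ATG5*-silenced pollen held 106 higher and 14 lower, and the 200 of highest mean over all 9 libraries held 61 higher and 36 lower. The count also moved with the scaling. Without scaling 18 were higher and 86 lower, with equal totals 22 and 74, and with quantile normalization 23 and 60. The background over all tested identifiers was then 8.86% higher and 20.7% lower without scaling, 9.92% and 17.1% with equal totals, and 12.7% and 11.3% with quantile normalization. Over unannotated transcripts it was 23.6% higher and 18.9% lower without scaling, 25.4% and 16.8% with equal totals, and 30.1% and 12.6% with quantile normalization. Of the calls among the 200, 17.3 to 27.7% were higher under these settings, against 40.3% with the median-of-ratios factors. The median log2 change over all tested identifiers was, in the same order, -0.43, -0.34 and -0.13. The 46 lower transcripts and 18 of the 31 higher transcripts were called under all 4 scalings.

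Of the 31 higher transcripts 14 exceeded 4-fold (7.0% of the 200), and of the 46 lower transcripts 21 did (10.5%), against 12 and 3 of the 200 annotated genes. Over all tested identifiers 5.01% were called higher and 1.34% lower with a change over 4-fold, and over unannotated transcripts 15.2% were higher and 2.96% lower. The median log2 change was 1.86 over the higher and -1.91 over the lower transcripts. The higher ones summed to 24525 FPKM in *ATG5*-silenced, 7130 in *ATG2*-silenced and 7577 in WT pollen, and the lower ones to 3178 in *ATG5*-silenced, 19557 in *ATG2*-silenced and 15680 in WT pollen. Of the other 123 transcripts, 38 rises and 40 falls had an adjusted p under 0.05 but stayed within 2-fold, and 45 did not pass. At any fold, 69 of the 200 were higher and 86 lower by this p limit, against 82 and 66 of the 200 annotated genes. The share over all tested identifiers was not computed at this limit, so nothing is read from these counts. By WT rank, 7 of the first 50 were higher and 14 lower, 6 and 11 of ranks 51 to 100, 13 and 9 of ranks 101 to 150, and 5 and 12 of ranks 151 to 200.

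**Figure D3:**
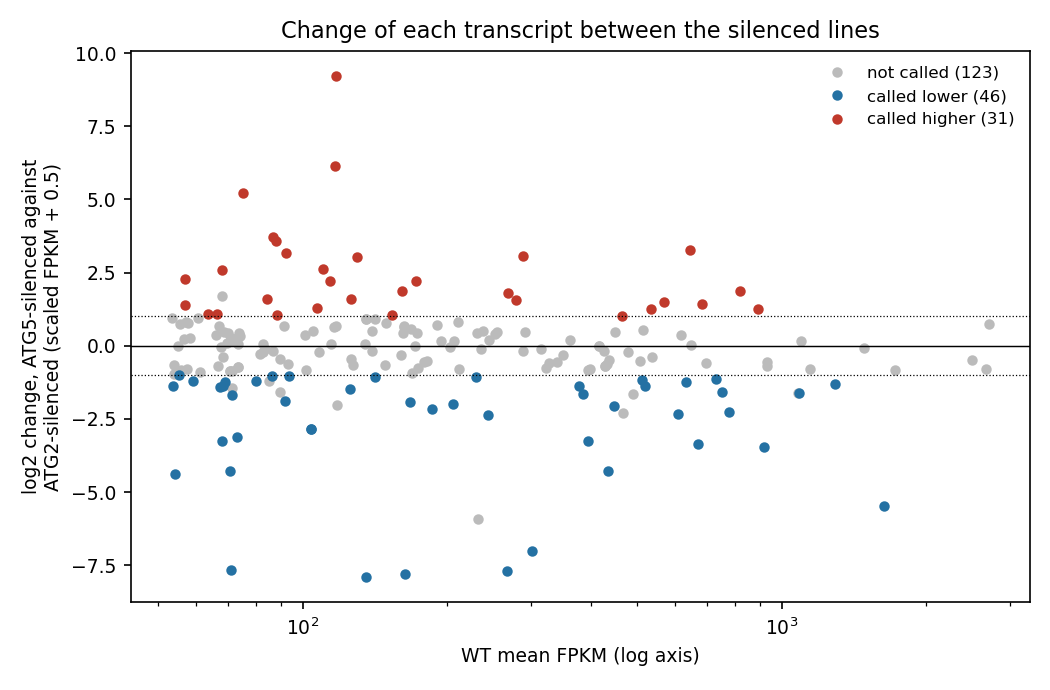
Log2 change between *ATG5*-silenced and *ATG2*-silenced pollen (scaled FPKM + 0.5) of each of the 200 transcripts against its WT mean FPKM on a log axis, with dotted lines at the 2-fold limit. The 31 transcripts called higher (red) and the 46 called lower (blue) lie on both sides over most of the range of WT levels, and none of the 10 of highest WT mean was called higher.

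The transcripts that gained were led by a few. Of the FPKM gained in *ATG5*-silenced over *ATG2*-silenced pollen, summed over the 200 as deposited, 43.0% came from the 3 largest gains, transcripts 4913, 5267 and 9865, while the 3 largest losses made up 16.4% of the FPKM lost. Transcript 4913 had 4069, 4105 and 4534 FPKM in *ATG5*-silenced, 656, 611 and 609.5 in *ATG2*-silenced and 649, 661 and 620.3 in WT libraries, a log2 change between the silenced lines of 3.26 (SE 0.07, adjusted p = 2.96e-08). It was the highest unannotated transcript and number 26 of all identifiers in *ATG5*-silenced pollen, whereas it was number 24 among unannotated transcripts in WT.

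Replicates of transcripts 9865 and 20131 were close to each other in every genotype. Those of transcript 11421 lay further apart in *ATG2*-silenced and WT libraries. Transcript 9865 had 1901, 1701 and 1607 FPKM in *ATG5*-silenced, 299.8, 263 and 321 in *ATG2*-silenced and 286, 285 and 294.5 in WT libraries (log2 change 3.06, SE 0.10, adjusted p = 1.23e-07). Transcript 20131 had 639, 605 and 590.0 FPKM in *ATG5*-silenced, 96.2, 93.0 and 99.5 in *ATG2*-silenced and 90.03, 82.1 and 105 in WT libraries (log2 change 3.16, SE 0.08, adjusted p = 4.56e-08). For transcript 11421 the values were 783, 877 and 796 FPKM in *ATG5*-silenced, 117, 93.1 and 78.9 in *ATG2*-silenced and 79.7, 75.4 and 109 in WT libraries (log2 change 3.59, SE 0.16, adjusted p = 7.35e-07). In each of them the lowest *ATG5*-silenced library was several times the highest of the other 6.

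Transcript 5267 stood at rank 118 in WT and at rank 3 among unannotated transcripts in *ATG5*-silenced pollen. It had 3149, 3199 and 2299 FPKM in *ATG5*-silenced, 88.2, 58.2 and 34.8 in *ATG2*-silenced and 133, 118 and 99.6 in WT libraries (log2 change between the silenced lines 6.15, SE 0.33, adjusted p = 3.89e-06). All *ATG2*-silenced libraries were also below all WT libraries, although that difference was not called. Transcript 4914, whose number follows that of transcript 4913, had 464, 780 and 1246 FPKM in *ATG5*-silenced, 92.4, 80.4 and 72.4 in *ATG2*-silenced and 64.4, 91.4 and 105 in WT libraries (log2 change 3.73, SE 0.32, adjusted p = 4.04e-05), so the *ATG5*-silenced libraries were apart from the rest but also from each other.

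Transcripts 15003 and 21308, which complete the 8 largest increases, had values listed at 0. Transcript 15003 had 77.1, 910 and 177 FPKM in *ATG5*-silenced libraries, was listed at 0 in all *ATG2*-silenced libraries, and was listed at 0 in 1 WT library and at 176 and 175 FPKM in the other 2, so that it separated the silenced lines (adjusted p = 0.00992) but not *ATG5*-silenced pollen from WT. Transcript 21308 had 390.1, 508 and 241 FPKM in *ATG5*-silenced, 45.1, 105 and 0 in *ATG2*-silenced and 58.5, 26.2 and 140.4 in WT libraries. Its log2 change of 5.21 (SE 1.83, adjusted p = 0.0445) missed the threshold in 13 of 19 alternative fits, with adjusted p-values of 0.0514 to 0.104 there.

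Of the 8 largest decreases, 1 was transcript 21258, described above, and the other 7 were of transcripts listed at 0 in at least 1 *ATG5*-silenced library, where a fitted change depends on the added 0.5 and an exact 0 may be a failed estimate. Transcript 15412 was listed at 0, 0 and 4.23 FPKM in *ATG5*-silenced, against 139.9, 159.9 and 182.5 in *ATG2*-silenced and 255, 249 and 399.6 in WT libraries (log2 change between the silenced lines -7.01, SE 0.89, adjusted p = 4.56e-04). Transcript 6147 was listed at 0 in all *ATG5*-silenced libraries, against 115, 75.4 and 170.3 FPKM in *ATG2*-silenced and 658, 90.5 and 54.6 in WT libraries (adjusted p = 2.42e-04). Transcript 19398 was also listed at 0 in all *ATG5*-silenced libraries, against 96.9, 47.7 and 398 FPKM in *ATG2*-silenced and 342, 110 and 38.8 in WT libraries (adjusted p = 3.74e-04). Transcripts 6147 and 19398 both varied over 2-fold between replicates of *ATG2*-silenced and of WT pollen.

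Transcripts 629 and 630, whose numbers are consecutive, fell together. Transcript 629 was listed at 0, 0 and 39.1 FPKM in *ATG5*-silenced, 857, 1238 and 217 in *ATG2*-silenced and 219.6, 57.9 and 130.1 in WT libraries (log2 change -7.92, SE 1.78, adjusted p = 0.00740). Transcript 630 was listed at 0, 0 and 4.43 FPKM in *ATG5*-silenced, 253, 469 and 142 in *ATG2*-silenced and 69.7, 61.2 and 82.2 in WT libraries (log2 change -7.67, SE 0.97, adjusted p = 4.42e-04). In both the only *ATG5*-silenced library above 0 was replicate 3, and *ATG2*-silenced replicate 2 was the highest of all libraries. Transcripts 19852 and 27080, of lower WT rank, completed the 8 largest decreases. Transcript 19852 had 0, 9.96 and 20.1 FPKM in *ATG5*-silenced, 110.5, 107.5 and 139.7 in *ATG2*-silenced and 80.1, 71.4 and 60.2 in WT libraries (log2 change -4.29, SE 1.31, adjusted p = 0.0266). Transcript 27080 had 10.3, 0 and 6.47 FPKM in *ATG5*-silenced, 64.8, 61.3 and 179.5 in *ATG2*-silenced and 49.0, 34.0 and 79.3 in WT libraries (log2 change -4.38, SE 1.20, adjusted p = 0.0172). Neither overlapped between the silenced lines, which the rule for naming them required. The call of transcript 19852 was lost in 5 of the 19 alternative fits (adjusted p of 0.0553 to 0.0690) and that of transcript 27080 without *ATG2*-silenced replicate 3 (adjusted p = 0.0571).

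**Figure D4:**
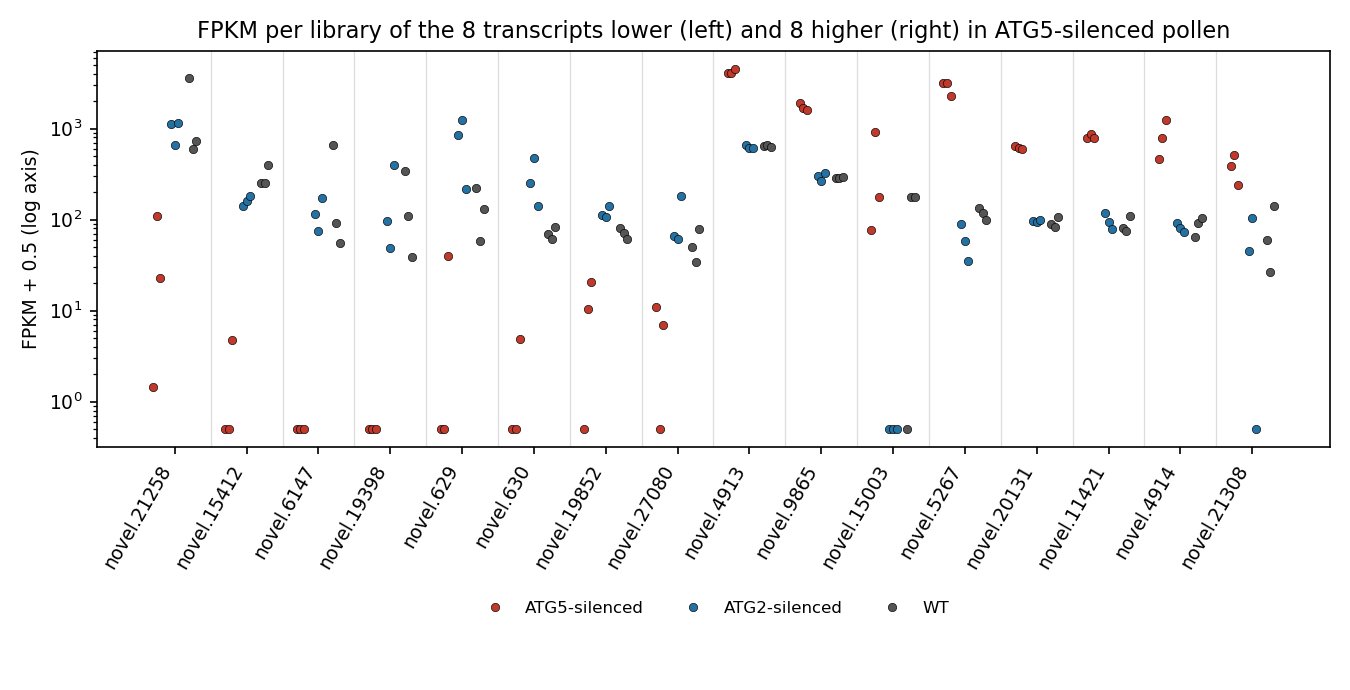
FPKM + 0.5 on a log axis in each library (points) for the 8 transcripts with the largest decrease (left) and the 8 with the largest increase (right) in *ATG5*-silenced against *ATG2*-silenced pollen. Points at the lower edge are values listed at 0. All *ATG5*-silenced points of a transcript lie on 1 side of its *ATG2*-silenced points, which the rule for naming them required.

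Another 3 transcripts were picked after their values were seen, for their level or their pattern. Transcript 12004, at WT rank 14, had 57.0, 73.7 and 77.5 FPKM in *ATG5*-silenced, 1118, 1031 and 1077 in *ATG2*-silenced and 868, 885 and 1003 in WT libraries (log2 change between the silenced lines -3.46, SE 0.10, adjusted p = 6.45e-08). Its replicates were close to each other in all genotypes. Transcript 11303, at rank 16, showed the reverse, with 2328, 1945 and 2139 FPKM in *ATG5*-silenced, 881, 760 and 816 in *ATG2*-silenced and 800.1, 779 and 883 in WT libraries (log2 change 1.88, SE 0.10, adjusted p = 1.11e-06). Transcript 27638 gave the largest loss in FPKM between the silenced lines, with 27.2, 137 and 133 FPKM in *ATG5*-silenced, 2291, 3571 and 1292 in *ATG2*-silenced and 398, 322 and 586 in WT libraries (log2 change -4.29, SE 0.66, adjusted p = 0.00117). Its *ATG2*-silenced libraries were above all WT libraries and its *ATG5*-silenced libraries below them.

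Against WT, whose libraries chose the transcripts, the values are given as a description. *ATG5*-silenced pollen had 24 of the 200 higher and 58 lower by the same limits, where the background over all tested identifiers was 14.6% higher and 7.75% lower, and the median log2 change of the 200 was -0.45. *ATG2*-silenced pollen had none higher and none lower against WT by limma, where 0.481% of all tested identifiers were higher and 0.158% lower. Its median log2 change was -0.19. Choice by WT favours lower values elsewhere, so nothing is read from these counts. Of the 31 transcripts higher between the silenced lines 24 passed the same limits against WT, and of the 46 lower ones 42 did, in comparisons that share the *ATG5*-silenced libraries. In all, 107 of the 200 were called in no comparison.

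Between *ATG2*-silenced and WT pollen, 1 of the 200 had a limma adjusted p under 0.05, without reaching 2-fold. WT libraries chose the 200, which favours lower values elsewhere, so this is a description. The share of all tested identifiers under this limit was not computed. Transcript 14061 had 10.3, 11.3 and 11.1 FPKM in *ATG5*-silenced, 34.4, 42.8 and 47.7 in *ATG2*-silenced and 69.4, 73.0 and 62.3 in WT libraries. The 3 genotypes did not overlap, with *ATG2*-silenced pollen in between.

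A subset of the 200 varied strongly between replicates. In 22 of them the highest WT library exceeded the lowest by more than 2-fold, which held for 1 of the 200 annotated genes. Between *ATG5*-silenced libraries 28 exceeded 2-fold and between *ATG2*-silenced libraries 14, which held for none of the annotated genes in either genotype. The counts of the silenced lines leave out any transcript or gene listed at 0 in a library of that line. They are lower limits, while the 22 of WT include such transcripts. Most of the 200 were tighter, with 164 within 1.5-fold in WT. The coefficient of variation in WT had a median of 8.88% over the 200 transcripts and 4.96% over the 200 annotated genes. The annotated genes were at higher levels, with a median WT mean of 1595 against 149 FPKM. Annotated genes of similar level were not compared, and the part of the level in the spread was not tested. Of the 22, 16 were highest in WT replicate 1, 16 in *ATG5*-silenced replicate 2 and 13 in both, while 12 were highest in *ATG2*-silenced replicate 3. Of the other 178, 62 were highest in WT replicate 1 and 48 in *ATG5*-silenced replicate 2. Transcripts 3549 and 3550, which had equal values in every library, both count among the 22.

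Values of the variable transcripts show this. Transcript 7118 had 155, 1028 and 191 FPKM in *ATG5*-silenced, 1319, 1375 and 1323 in *ATG2*-silenced and 1845, 629 and 769 in WT libraries. Transcript 11238 had 57.0, 1659 and 379.6 FPKM in *ATG5*-silenced, 889, 502 and 940.5 in *ATG2*-silenced and 1934, 353 and 512 in WT libraries. Both, picked after their values were seen, were highest in replicate 2 of *ATG5*-silenced and replicate 1 of WT pollen, and neither passed the test between the silenced lines (adjusted p = 0.101 and 0.654). The same peaks were seen in transcript 8359, which was listed at 0, 32.0 and 0 FPKM in *ATG5*-silenced, 31.2, 14.6 and 0 in *ATG2*-silenced and 184, 18.5 and 11.4 in WT libraries (adjusted p = 0.618).

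Other patterns of spread occurred as well. Transcript 385 was listed at 0 in all *ATG5*-silenced libraries and in 1 *ATG2*-silenced library, with 127 and 517 FPKM in the other *ATG2*-silenced libraries and 272, 189.9 and 236 in WT libraries, and the silenced lines did not pass the test (adjusted p = 0.0571). Transcript 27564 had 25.1, 28.6 and 14.6 FPKM in *ATG5*-silenced, 82.0, 19.0 and 0 in *ATG2*-silenced and 26.6, 47.8 and 129 in WT libraries (adjusted p = 0.421). In all, 12 of the 200 were listed at 0 in at least 1 library, 9 of them in at least 1 *ATG5*-silenced library.

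The variable transcripts held -0.61 of the -0.70 percentage points by which the share differed between the silenced lines. They were split off by their spread in WT libraries, which also chose the 200, and the split of the share was made after seeing the data. The sum over the others holds gains and losses, so the difference is not placed by this split. The 22 held 0.110, 0.673 and 0.208% of all FPKM in *ATG5*-silenced, 0.998, 0.905 and 0.914% in *ATG2*-silenced and 1.64, 0.442 and 0.601% in WT libraries. The other 178 held 5.40 ± 0.07% in *ATG5*-silenced, 5.49 ± 0.13% in *ATG2*-silenced and 5.53 ± 0.08% in WT pollen (SD, n = 3 each), and the silenced lines then differed by -0.091 percentage points (exact permutation p = 0.40). WT replicate 1, the highest WT library for the 200 with 7.24%, held 5.60% in the other 178, against 5.55 and 5.44% in the other WT libraries. Of the 22, 2 were called higher, 11 lower and 9 not between the silenced lines, so that 29 higher and 35 lower calls came from the 178.

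**Figure D5:**
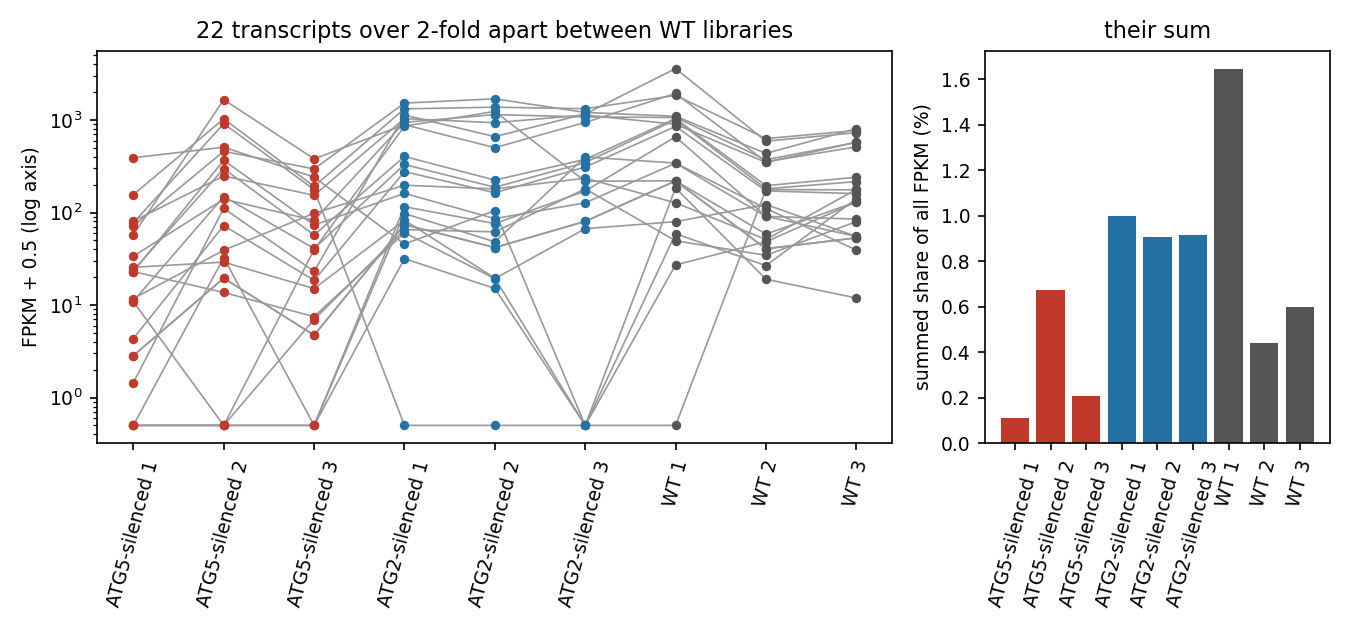
Left, FPKM + 0.5 on a log axis of the 22 transcripts that differed over 2-fold between WT libraries, in each of the 9 libraries, with a line for each transcript. Right, their summed share of all FPKM in percent, which is 1.64% in WT replicate 1, against 0.442 and 0.601% in the other WT libraries, and 0.673% in *ATG5*-silenced replicate 2, against 0.110 and 0.208% in the other *ATG5*-silenced libraries.

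Some of the 200 identifiers were not separate measurements. In 6 pairs, 12 transcripts in all, both identifiers had equal FPKM in all 9 libraries, which leaves 194 distinct profiles. These were transcripts 3549 and 3550, transcripts 6273 and 6274, transcripts 8129 and 8130, transcripts 9186 and 9187, transcripts 11674 and 11675, and transcripts 24190 and 24191. No such pair was found among the 200 annotated genes, and 71 of the 7472 unannotated transcripts above 0 in a library shared all values with another one. Of the pairs, transcripts 3549 and 3550 were called between the silenced lines, with 2.34, 19.0 and 4.22 FPKM in *ATG5*-silenced, 73.5, 41.3 and 79.7 in *ATG2*-silenced and 219, 40.1 and 52.7 in WT libraries (log2 change -2.83, SE 0.87, adjusted p = 0.0271). Counted once each, the 194 profiles gave 31 higher and 45 lower.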

How the data were processed

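Pollen RNA of the 3 genotypes came from a MiniBEST kit, its mRNA from Dynabeads, and MGIEasy libraries were run on the MGIseq2000. The authors cleaned reads with SOAPnuke, mapped them with HISAT2 and Bowtie 2 to the Ntab-TN90 reference and deposited FPKM per gene from RSEM, normalized for transcript length and mapped fragments. Versions and the assembly of unannotated transcripts are not given in the sources used here. Each table held 1 line without gene or value, which was left out. The *ATG2*-silenced libraries and WT replicate 3 carry 1 decimal, the others 2.

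Median-of-ratios factors from 14192 identifiers above 1 FPKM in all libraries, relative to the geometric mean of WT, scaled the libraries. The test covered 27836 identifiers that reached 0.5 FPKM in 3 or more libraries, on log2(scaled FPKM + 0.5) with limma 3.58.1 in R 4.3.3 (statmod 1.5.0; lmFit, eBayes with trend and robust), in 1 fit of 9 libraries. Calls needed a fold above 2 or below 0.5 with an adjusted p under 0.05. Shares were compared by two-sided exact permutation tests (scipy 1.17.1). The procedure was tested on simulated data with a capped spread and without values of 0, which does not cover transcripts listed at 0 or of wide spread. Alternatives were other scalings, pseudocounts, filters, rounding, a replicate block, left-out libraries and other choices of the 200.

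The members and lists were chosen with earlier results of these data known. Named transcripts are the 10 highest in WT, the 8 of largest change per direction between the silenced lines among those called, with separate libraries and at least 5 FPKM in 1 group, the transcripts called in *ATG2*-silenced pollen against WT (there were none), 3 on each side of the limit, the 3 of largest SD of log2 per genotype, and those said to be picked after their values were seen. Marker names came from the RefSeq gene table of assembly ASM71507v2. Replicates are independent by the study's methods.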

Additional observations from a re-analysis of the deposited data

How the results depend on the processing

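The 46 lower and 31 higher transcripts between *ATG5*-silenced and *ATG2*-silenced pollen depended most on scaling and on the choice of transcripts. Without scaling there were 18 higher and 86 lower, and with equal totals 74 lower. With the 100 highest there were 13 and 25, with the 400 highest 75 and 89, with 200 chosen by *ATG5*-silenced libraries 106 and 14, and by the mean of all 9 libraries 61 higher. Those last choices, and those without variable transcripts or repeated profiles, were made after seeing the data. The difference in share was 1.16 percentage points with the choice by *ATG5*-silenced libraries and 0.039 with that by all 9. Leaving out 1 library gave 29 to 32 higher, 36 to 49 lower and a difference in share of -0.85 to -0.57. For *ATG5*-silenced against WT, the 100 highest gave 11 higher and 31 lower and the 400 highest 64 and 101. For *ATG2*-silenced against WT, 1 was higher with the choice by *ATG5*-silenced libraries, 1 was lower among the 400 highest, and 1 was lower without *ATG5*-silenced replicate 3 (transcript 15412) or without WT replicate 1 (transcript 15003), the range over left-out libraries being 0 to 1. Transcript 6870 changed sign under 3 scalings (-0.32, -0.20 and -0.093). Of 25 named transcripts, 16 kept their direction and side of the threshold in all 19 fits. The cause of these shifts was not tested. Same-numbered libraries correlated by -0.044 to 0.053 in their deviations, against -0.11 to 0.069 for libraries of different number. No shared deviation of same-numbered libraries was thus seen, and whether the numbers pair the samples is not given in the sources used here. With the replicate block there were 30 higher and 42 lower between the silenced lines, 24 and 53 for *ATG5*-silenced against WT, and 1 lower for *ATG2*-silenced against WT (transcript 5267). FPKM without counts leaves the counting error of each value unknown.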

Other observations

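The 200 highest unannotated transcripts of *ATG5*-silenced pollen included 77 that were not among the 200 highest of WT. Of these, 29 had a WT mean below 10 FPKM and 8 below 1 FPKM. They were chosen by their *ATG5*-silenced level, so their values are a description, and the ones named here were picked after their values were seen. Transcript 5626 had 918, 863 and 703 FPKM in *ATG5*-silenced, 36.3, 69.5 and 0 in *ATG2*-silenced and 0, 55.1 and 18.9 in WT libraries. Transcript 26086 had 261, 1389 and 429 FPKM in *ATG5*-silenced libraries and was listed at 0 in all 6 others. Transcript 3133 had 292, 299.6 and 374 FPKM in *ATG5*-silenced, 0.2, 0.7 and 0.1 in *ATG2*-silenced and 0.15, 0.12 and 0.3 in WT libraries. All *ATG5*-silenced libraries lay above all others in these, and transcript 26086 peaked in *ATG5*-silenced replicate 2, the library in which 16 of the 22 variable transcripts of the report were also highest within *ATG5*-silenced pollen.

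Among the 200 most abundant transcripts of WT, 10 pairs had consecutive identifier numbers, and 6 of these were the pairs with equal values. Of the pairs with unequal values, transcripts 629 and 630 both fell and transcripts 4913 and 4914 both rose in *ATG5*-silenced against *ATG2*-silenced pollen. The others went opposite ways within the pair and were not called. Their log2 changes were -0.46 and 0.79 for transcripts 10807 and 10808, and -0.71 and 0.47 for transcripts 26853 and 26854. What the numbers stand for is not given in the sources used here, and whether such transcripts come from neighbouring positions was not tested.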
